A study of Mus musculus with 9 samples.

Results

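The genes described here are 36 mouse genes whose products make ribosomes in the nucleolus, out of 57010 gene identifiers measured in lung organoids, which are 3-dimensional cultures grown from lung cells. A gene was included when its symbol was on a fixed list and stood in both of the authors' comparison tables, and all 36 did. The symbols were grouped by role into RNA polymerase I transcription (5 genes), the box C/D (3 genes) and box H/ACA (5 genes, with a chaperone) small nucleolar RNA-protein particles, abundant nucleolar proteins (6 genes), small subunit assembly (8 genes) and large subunit assembly (9 genes). RNA from 3 groups was sequenced as stranded mRNA libraries, with 3 libraries in each. The GSK group was small cell lung cancer (SCLC) organoids treated with an agent that the labels call GSK, the SCLC group was SCLC organoids with no treatment named, and the Normal group was normal lung organoids. Small cell lung cancer is an aggressive neuroendocrine tumour. The identity, dose and duration of the GSK treatment, the genotype, strain and age of the animals, and whether libraries came from separate cultures, animals or clones are not given in the sources used, so a p-value below measures only the spread between these libraries.

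Ribosomes are built in the nucleolus, where RNA polymerase I copies the ribosomal RNA genes into a long precursor. Small nucleolar RNA-protein particles modify that precursor, and large sets of assembly factors fold and cut it into the small and the large subunit. Many of these genes are known targets of the MYC transcription factors, which bind the E-box CACGTG, and rapidly dividing tumour cells are known for enlarged nucleoli.

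The letters CACGTG were therefore searched in the RefSeq promoter windows (GRCm38.p6), which run from 250 bases before to 50 bases after a gene's start and span 300 bases. The motif is its own reverse complement, so a match counts for both strands. Windows were at hand for 31 of the 36 genes, and 7 of them (22.6%) held the motif, against 2187 of 27025 genes (8.1%) with a window, 1516 of 16522 protein-coding genes (9.2%) and 19 of 121 further ribosome biogenesis genes (15.7%). The 7 genes held 8 matches, 7 of which lay between 100 bases before and 50 bases after the start. The matches are shown with up to 12 bases on either side, 5′ to 3′ on the gene's own strand, and capitals mark the motif.
Rrn3, chr16:13780472-13780501, plus strand, motif 215 bases before the start: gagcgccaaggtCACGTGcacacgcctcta
Rrn3, chr16:13780639-13780668, plus strand, motif 48 bases before the start: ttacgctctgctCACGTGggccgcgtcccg
Nop2, chr6:125131811-125131840, plus strand, motif 60 bases before the start: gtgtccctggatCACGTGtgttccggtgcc
Pes1, chr11:3963965-3963994, plus strand, motif from base 3 after the start: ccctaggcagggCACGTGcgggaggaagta
Utp4, chr8:106893643-106893672, plus strand, motif from base 16: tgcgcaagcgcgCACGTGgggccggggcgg
Wdr43, chr17:71616220-71616249, plus strand, motif from base 18: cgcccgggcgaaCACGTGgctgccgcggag
Utp20, chr10:88826765-88826789, minus strand, motif from base 38: cggcactaactaCACGTGaggaaaa
Mybbp1a, chr11:72441355-72441376, plus strand, motif from base 41: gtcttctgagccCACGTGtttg
Rrn3, the factor that brings RNA polymerase I to its promoter, was the only member with 2 matches in its window. A match is a stretch of letters, and no binding was measured.

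The files gave each gene's mean normalised count over the 6 libraries of a comparison and the authors' log2 fold change, and no value of a single library. The mean of each group was implied from these, with 3 libraries a side, and the spread between libraries is seen only through the authors' standard error (given after ±). The implied totals of normalised counts were 42.0 M in SCLC and 44.7 M in Normal organoids in the first table, and 31.9 M in GSK and 45.3 M in SCLC organoids in the second. A gene was called higher or lower when the authors' adjusted p was under 0.05. The labelled tissues were checked against marker genes. All 8 neuroendocrine markers were higher in SCLC than in Normal organoids (summed level 150678 in SCLC and 93.5 in Normal), and all 8 alveolar type II markers were lower (4705 in SCLC and 3119419 in Normal). Normal organoids also held RNA of other cell types. All 5 club cell markers (240 in SCLC and 46853 in Normal) and all 7 fibroblast markers (26.7 in SCLC and 9633 in Normal) were lower in SCLC. So were 5 of 7 immune (76 in SCLC and 1863 in Normal) and 4 of 6 endothelial markers (53.2 in SCLC and 131 in Normal), and 0 were called higher.

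SCLC organoids had more RNA of nearly the whole set than Normal organoids. In the authors' deposited table, 33 of the 35 members with an adjusted p (94.3%) were higher in SCLC and 0 were lower, where 25.3% of all 24719 genes tested were higher and 25.1% lower. Among the 7605 genes averaging at least 1000, 38.2% were higher. The median log2 fold change of the members was 2.14 (range −0.28 to 3.41) in the authors' deposited table, against 0.10 over all genes tested and 0.19 over genes averaging at least 1000. When both groups were scaled to equal totals, the same count of 33 members was higher, against 26.8% of all genes. In a test of an absolute log2 fold change above 1, 27 members were higher, against 11.9% of all genes. The plot of fold changes shows each member with its standard error. Because the libraries were made from whole organoids, more cells of a type and more RNA per cell cannot be told apart.

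**Figure D1:**
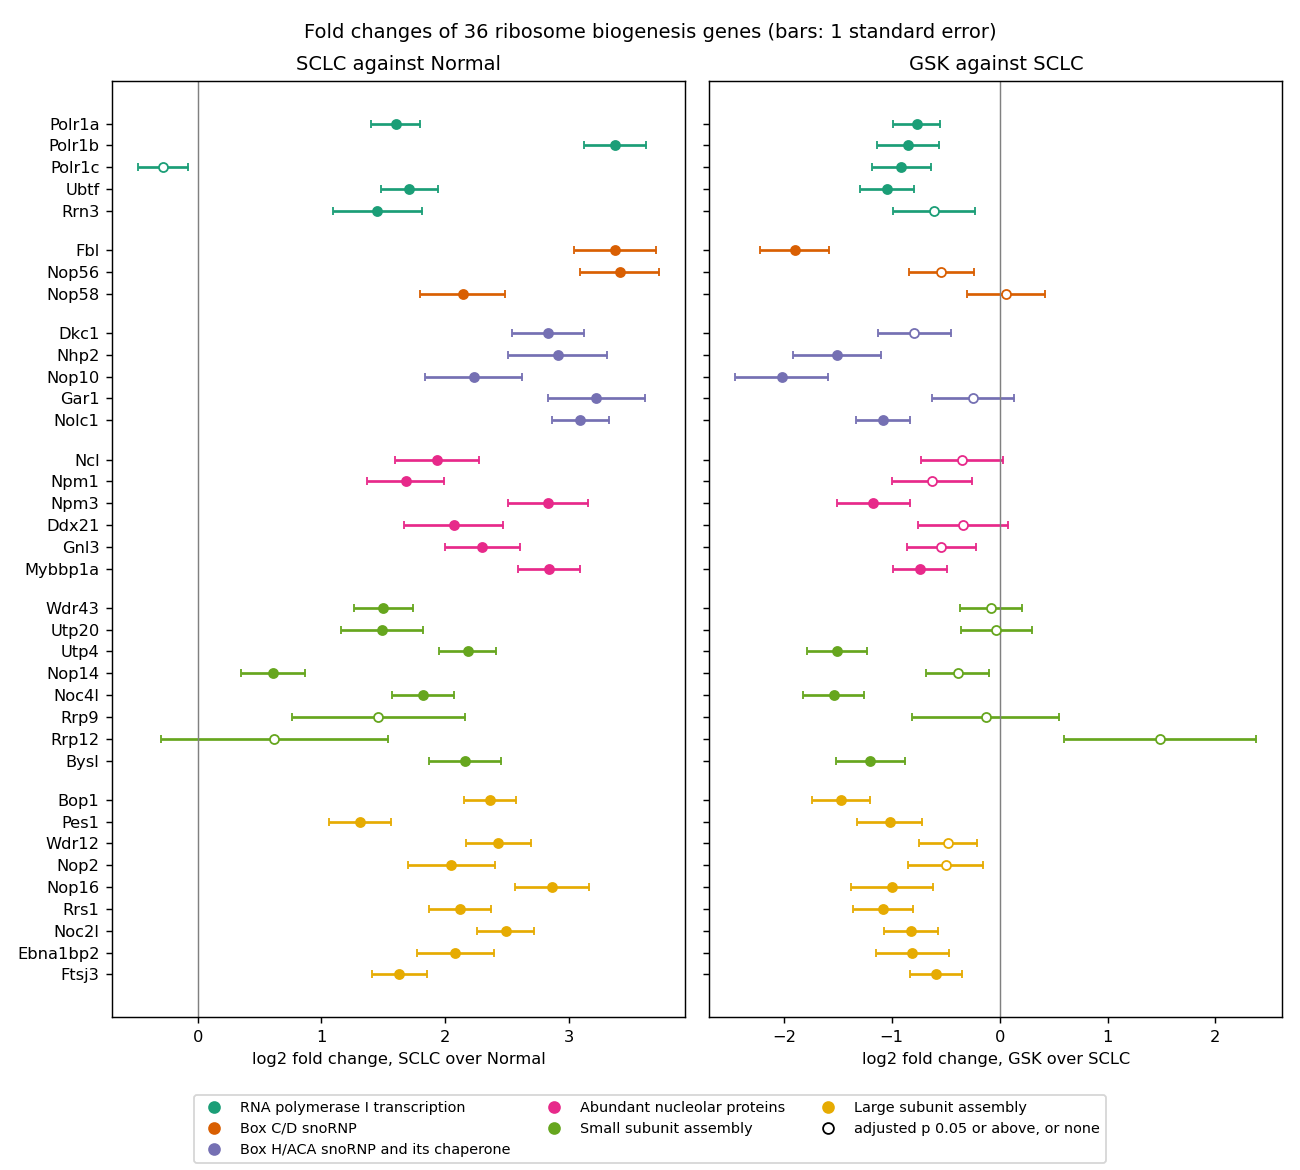
Log2 fold change of each of the 36 members, SCLC over Normal at left and GSK over SCLC at right, coloured by role, with bars of 1 standard error and open points where the authors' adjusted p was 0.05 or above or not given. In the left panel 33 points are filled and all lie above 0; in the right panel 20 are filled and all lie below 0, of which 6 remained called when groups were scaled to equal totals.

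Of the RNA polymerase I genes, 4 of 5 were higher in SCLC, with a median log2 fold change of 1.60 in the authors' deposited table. Polr1b, the second-largest subunit of the enzyme, had an implied mean of 6127 in SCLC and 593 in Normal organoids, a log2 fold change of 3.37 ± 0.25 (10.3-fold; adjusted p = 3.08e-41) in the authors' deposited table. Ubtf, the factor that binds along the ribosomal RNA genes, had 14768 in SCLC and 4510 in Normal organoids, or 1.71 ± 0.23 (adjusted p = 1.89e-12) in the authors' deposited table. Both were several standard errors above 0. The catalytic subunit gene Polr1a (1.60) and Rrn3 (1.45) were higher by smaller log2 fold changes in the authors' deposited table. Polr1c, a subunit that RNA polymerases I and III share, was the member of the 5 that did not pass. Its implied mean was 3783 in SCLC and 4588 in Normal organoids, and the authors' deposited table gave −0.28 ± 0.20 (adjusted p = 0.243), with a 95% interval of −0.67 to 0.11. Centring the fold changes on the median gene, or removing their trend with GC content and transcript length, brought Polr1c to adjusted p-values of 0.042 and 0.0186, and it was then called lower.

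The 3 core proteins of box C/D particles, which place methyl groups on ribosomal RNA, were all higher in SCLC organoids. Fbl, the methyltransferase fibrillarin, had an implied mean of 16536 in SCLC and 1599 in Normal organoids, a log2 fold change of 3.37 ± 0.33 (10.3-fold; adjusted p = 7.68e-23) in the authors' deposited table. Its partner Nop56 had 17842 in SCLC and 1673 in Normal organoids, or 3.41 ± 0.32 (10.7-fold; adjusted p = 9.19e-25), in the authors' deposited table. Nop58, the other scaffold of these particles, had 6642 in SCLC and 1510 in Normal organoids, or 2.14 ± 0.34, in the authors' deposited table. Nop56 had the largest fold change of the 36 members.

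All 5 genes of box H/ACA particles and their chaperone were also higher, with a median log2 fold change of 2.91 in the authors' deposited table. These particles convert uridine to pseudouridine in ribosomal RNA and also form part of telomerase. Gar1, a core protein, had 2670 in SCLC and 287 in Normal organoids, or 3.22 ± 0.39 (adjusted p = 2.44e-15), in the authors' deposited table. Nolc1, a chaperone of the particles, had 13301 in SCLC and 1563 in Normal organoids, or 3.09 ± 0.23 (adjusted p = 3.28e-39), in the authors' deposited table. Pseudouridine synthase Dkc1 (2.83) and the core protein genes Nhp2 (2.91) and Nop10 (2.23) had log2 fold changes in a similar range in the authors' deposited table.

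The abundant nucleolar proteins were higher in SCLC organoids in 6 of 6 cases, by log2 fold changes of 1.68 to 2.84 in the authors' deposited table. Mybbp1a, a Myb-binding nucleolar protein, had 22476 in SCLC and 3141 in Normal organoids, or 2.84 ± 0.25 (adjusted p = 3.99e-29), in the authors' deposited table. Npm3, a small member of the nucleoplasmin family, had 3734 in SCLC and 526 in Normal organoids, or 2.83 ± 0.32 (adjusted p = 1.42e-17), in the authors' deposited table. Smaller fold changes were found for the most abundant RNAs. Ncl (nucleolin) had 50463 in SCLC and 13206 in Normal organoids, and Npm1 (nucleophosmin) had 39801 in SCLC and 12388 in Normal organoids, log2 fold changes of 1.93 ± 0.34 and 1.68 ± 0.31 in the authors' deposited table. Npm3 is the 1 member with a pseudogene named after it in the GENCODE M21 annotation. Pseudogenes under other names were not searched, so Npm1, Ncl and the other members may have copies too. How the authors counted reads that such copies share is not given in the sources used. The RNA helicase gene Ddx21 (2.07) and the nucleostemin gene Gnl3 (2.30) lay between these in the authors' deposited table.

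Small subunit assembly had the smallest median of the 6 roles, a log2 fold change of 1.50, and 6 of 7 tested genes higher in SCLC organoids in the authors' deposited table. Utp4, a subunit of the complex that first joins the nascent precursor, had 5683 in SCLC and 1251 in Normal organoids, or 2.18 ± 0.23 (adjusted p = 1.84e-19), in the authors' deposited table. Bysl (bystin) had 4135 in SCLC and 927 in Normal organoids, or 2.16 ± 0.29 (adjusted p = 1.24e-12), in the authors' deposited table. Noc4l (1.82), Wdr43 (1.50) and Utp20 (1.49), further processome or assembly factors, were higher by less in the authors' deposited table. Nop14, a partner of Noc4l in yeast, had 1331 in SCLC and 874 in Normal organoids, or 0.61 ± 0.26 (adjusted p = 0.0376), in the authors' deposited table. That call did not hold under 5 of the 7 alternatives run for it, among them centring on the median gene (0.43). Rrp9, a protein of the U3 particle, had 1837 in SCLC and 669 in Normal organoids, and 1.46 ± 0.70 (adjusted p = 0.0703, 95% interval 0.09 to 2.83) did not pass in the authors' deposited table. Rrp12, an assembly and export factor in yeast, had 905 in SCLC and 589 in Normal organoids and a fold change of 0.62 ± 0.92 without a p-value in the authors' deposited table.

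All 9 large subunit assembly genes were higher in SCLC organoids, by log2 fold changes of 1.31 to 2.86 in the authors' deposited table. Nop16, a nucleolar assembly factor, had 3928 in SCLC and 539 in Normal organoids, or 2.86 ± 0.30 (adjusted p = 3.65e-20), in the authors' deposited table. Noc2l, the mouse counterpart of a yeast factor that accompanies the large subunit precursor, had 10052 in SCLC and 1792 in Normal organoids, or 2.49 ± 0.23 (adjusted p = 8.23e-26), in the authors' deposited table. PeBoW, a complex of 3 proteins that act on the large subunit precursor, was higher throughout but unevenly: Wdr12 by 2.43 ± 0.26, Bop1 by 2.36 ± 0.21 and Pes1 by 1.31 ± 0.25 in the authors' deposited table. The remaining 4 genes were Rrs1 (2.12), Ebna1bp2 (2.08), the RNA methyltransferase gene Nop2 (2.05) and the methyltransferase-like gene Ftsj3 (1.63), all higher in the authors' deposited table.

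Of the MYC family list, 3 of 4 genes were higher in SCLC organoids too. Myc had 56586 in SCLC and 450 in Normal organoids, or 6.98 ± 0.39, and Mycl 1130 in SCLC and 146 in Normal organoids, or 2.96 ± 0.52, in the authors' deposited table. The 4 genes of the MYC family list together had a summed level of 62177 in SCLC and 4468 in Normal organoids. All 8 proliferation markers were higher too, with a summed level of 116786 in SCLC and 12716 in Normal organoids. The part of MYC, of dividing cells or of the change in cell types in the difference of the 36 genes was not tested.

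GSK-treated organoids had less RNA of part of the set than SCLC organoids. The same SCLC libraries were taken to be the control here, so the 2 comparisons are not independent. In the authors' deposited table, 20 of the 35 members with an adjusted p (57.1%) were lower in GSK and 0 were higher, where 15.5% of all 28376 genes tested were lower and 21.6% higher. Among the 7605 genes averaging at least 1000, which is where most members lie, 37.1% were lower. The median log2 fold change of the members was −0.79 (range −2.02 to 0.06) in the authors' deposited table, against 0.24 over all genes tested and −0.44 over genes averaging at least 1000. The implied totals of the second table differed by −0.51 on the log2 scale (GSK over SCLC), and the median over genes averaging at least 100 was −0.25. Scaled to equal totals, 6 members were lower, against 6.94% of all genes, the members' median became −0.29, and 10 members lay above 0 and 25 below. In the test of an absolute log2 fold change above 1, Fbl alone among the members was lower, against 1.98% of all genes.

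The GSK libraries also held RNA of other cell types. All 7 immune, 6 endothelial and 7 fibroblast markers and 4 of 5 club cell markers were higher in GSK than in SCLC organoids, also when scaled to equal totals. The summed immune level was 23825 in GSK and 81.8 in SCLC, the endothelial level 16429 in GSK and 56.8 in SCLC, the fibroblast level 14713 in GSK and 28.8 in SCLC, and the club cell level 8981 in GSK and 261 in SCLC. In SCLC organoids 4 immune, 3 endothelial and 1 fibroblast marker had an implied mean under 1, while no marker of these 3 lists did in GSK organoids. Of the alveolar type II markers 6 of 7 tested were higher (101454 in GSK and 5040 in SCLC, with 1 more lacking a p-value). Lyz2, which macrophages also express, made up 94202 of that sum in GSK and 2.64 in SCLC, and the other 7 markers summed to 7251 in GSK and 5036 in SCLC. Of the neuroendocrine markers 5 of 8 were lower and 1 higher (70391 in GSK and 162649 in SCLC). The part of these cells in the values of the ribosome biogenesis genes was not tested.

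RNA polymerase I genes were lower in GSK organoids in 4 of 5 cases, by log2 fold changes of −0.77 to −1.04 in the authors' deposited table. Ubtf had 7756 in GSK and 15952 in SCLC organoids, or −1.04 ± 0.25 (adjusted p = 0.000194), in the authors' deposited table. Polr1c, which did not pass between SCLC and Normal, had 2179 in GSK and 4088 in SCLC organoids, or −0.91 ± 0.27 (adjusted p = 0.00396), in the authors' deposited table. Polr1b (−0.85) and Polr1a (−0.77) were lower by similar amounts in the authors' deposited table. Rrn3 had 2821 in GSK and 4308 in SCLC organoids, and −0.61 ± 0.38 (adjusted p = 0.204, 95% interval −1.35 to 0.13) did not pass in the authors' deposited table. None of these 4 calls held when the groups were scaled to equal totals.

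The box C/D proteins divided. Fbl had 4811 in GSK and 17924 in SCLC organoids, or −1.90 ± 0.32 (3.73-fold lower; adjusted p = 2.67e-08), in the authors' deposited table. Nop56 had 13313 in GSK and 19317 in SCLC organoids, or −0.54 ± 0.30 (adjusted p = 0.161, 95% interval −1.13 to 0.06), in the authors' deposited table. Nop58 had 7498 in GSK and 7197 in SCLC organoids, or 0.06 ± 0.36 (adjusted p = 0.921, 95% interval −0.65 to 0.76), in the authors' deposited table. Fbl was the member called lower under every alternative run, while its scaffold partners were not called in the authors' test. The differences between Fbl and its partners were not tested, since the files give no library values.

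Of the box H/ACA genes 3 of 5 were lower in GSK organoids. Nop10, the smallest core protein, had 2240 in GSK and 9112 in SCLC organoids, or −2.02 ± 0.43 (4.07-fold lower; adjusted p = 1.70e-05), in the authors' deposited table. Nhp2 had 4368 in GSK and 12444 in SCLC organoids, or −1.51 ± 0.41 (adjusted p = 0.000977), in the authors' deposited table. Nolc1 (−1.08) was lower as well in the authors' deposited table. Dkc1 had 3408 in GSK and 5905 in SCLC organoids, or −0.79 ± 0.34 (adjusted p = 0.0539, 95% interval −1.46 to −0.12), just outside the threshold in the authors' deposited table. Gar1 had 2444 in GSK and 2900 in SCLC organoids, or −0.25 ± 0.38 (adjusted p = 0.662, 95% interval −1.00 to 0.51), in the authors' deposited table. The calls of Nop10 and Nhp2 held when groups were scaled to equal totals, and that of Nolc1 did not.

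Of the abundant nucleolar proteins 2 of 6 were lower in GSK organoids, both only without scaling to equal totals. Npm3 had 1804 in GSK and 4048 in SCLC organoids, or −1.17 ± 0.34 (adjusted p = 0.00266), in the authors' deposited table. Mybbp1a had 14487 in GSK and 24263 in SCLC organoids, or −0.74 ± 0.25 (adjusted p = 0.0105), in the authors' deposited table. Ncl and Npm1, the members with the highest means, did not pass. Ncl had 42802 in GSK and 54690 in SCLC organoids, or −0.35 ± 0.38 (adjusted p = 0.502, 95% interval −1.09 to 0.39), in the authors' deposited table. Npm1 had 27922 in GSK and 43098 in SCLC organoids, or −0.63 ± 0.37 (adjusted p = 0.178, 95% interval −1.35 to 0.10), in the authors' deposited table. Ddx21 (−0.34, adjusted p = 0.574, 95% interval −1.16 to 0.49) and Gnl3 (−0.54, adjusted p = 0.182, 95% interval −1.16 to 0.09) did not pass either in the authors' deposited table.

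Small subunit assembly genes were lower in GSK organoids in 3 of 7 tested cases. Noc4l had 984 in GSK and 2856 in SCLC organoids, or −1.54 ± 0.28 (adjusted p = 6.61e-07), in the authors' deposited table. Utp4 had 2159 in GSK and 6138 in SCLC organoids, or −1.51 ± 0.28 (adjusted p = 7.78e-07), in the authors' deposited table. Both calls held when the groups were scaled to equal totals, and that of Bysl (−1.20) in the authors' deposited table did not. Utp20 (−0.03, 95% interval −0.68 to 0.62, adjusted p = 0.964) and Wdr43 (−0.08, 95% interval −0.64 to 0.48, adjusted p = 0.861) were close to 0 in the authors' deposited table. Nop14 (−0.39, 95% interval −0.96 to 0.19, adjusted p = 0.319) and Rrp9 (−0.13, 95% interval −1.47 to 1.21, adjusted p = 0.907) did not pass in the authors' deposited table. Wdr43 and Utp4 belong to the same early complex of the processome. Rrp12 had 2684 in GSK and 955 in SCLC organoids and a fold change of 1.49 ± 0.89 without a p-value in the authors' deposited table.

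Large subunit assembly genes were lower in GSK organoids in 7 of 9 cases. Bop1 had 3841 in GSK and 10612 in SCLC organoids, or −1.47 ± 0.27 (adjusted p = 5.89e-07), in the authors' deposited table. Rrs1, which helps bring a further ribonucleoprotein to the large subunit, had 2510 in GSK and 5291 in SCLC organoids, or −1.08 ± 0.28 (adjusted p = 0.000637), in the authors' deposited table. In the PeBoW complex, Bop1 and Pes1 (−1.02) were lower, and Wdr12 (−0.48, 95% interval −1.00 to 0.04, adjusted p = 0.152) did not pass in the authors' deposited table. Nop16 (−1.00), Noc2l (−0.82), Ebna1bp2 (−0.81) and Ftsj3 (−0.59) completed the 7 in the authors' deposited table. Nop2 had 3906 in GSK and 5506 in SCLC organoids, or −0.50 ± 0.35 (adjusted p = 0.272, 95% interval −1.18 to 0.19), in the authors' deposited table. Of the 7 calls, that of Bop1 held when groups were scaled to equal totals.

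In this comparison Myc had 26822 in GSK and 60852 in SCLC organoids, or −1.18 ± 0.29 (adjusted p = 0.000308), and its partner Max −0.61 ± 0.24 (adjusted p = 0.03) in the authors' deposited table. Neither call held when groups were scaled to equal totals. Among the proliferation markers 4 of 8 were lower in GSK organoids, while Mki67 was higher (0.91) in the authors' deposited table. Their summed level was 98521 in GSK and 126225 in SCLC organoids. The part of MYC or of proliferation in the values of the 36 genes was not tested. Of the 7 genes with CACGTG in the window, Mybbp1a, Utp4 and Pes1 were called lower, and Rrn3, Nop2, Wdr43 and Utp20 did not pass. Beside them, 57.1% of tested members, 37.1% of genes averaging at least 1000 and 15.5% of all genes were lower. Of these calls only that of Utp4 held when groups were scaled to equal totals.

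Set as a share of the level in SCLC organoids, each within its own table, the median member stood at 58.2% in GSK organoids and at 22.9% in Normal organoids. The tables were normalised separately, so these shares are a description. Per kilobase of transcript, the median level was 1460 in GSK, 2321 in SCLC and 548 in Normal organoids. Here the SCLC and Normal levels came from the first comparison and the GSK levels from the second. Implied SCLC means were higher in the second by a median log2 ratio of 0.109, so GSK and SCLC levels per kilobase are not on 1 scale. Each length was that of 1 annotated transcript, so the ranks that follow depend on which transcript was taken. Npm1 had the highest level per kilobase in each group (17099 in GSK, 24373 in SCLC and 7586 in Normal), and Wdr12 the lowest (158 in GSK, 203 in SCLC and 37.7 in Normal). The transcript taken for Wdr12 had 10012 bases, where the median of the members was 2743. The next below Npm1 was Nop56 in GSK organoids (7093), Fbl in SCLC organoids (13814) and Polr1c in Normal organoids (3492). Ncl, with the highest implied mean in each group, was divided by a transcript of 8202 bases. Its level per kilobase was 5219 in GSK, 6153 in SCLC and 1610 in Normal organoids. The plot of implied means shows the order of levels, not divided by length.

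**Figure D2:**
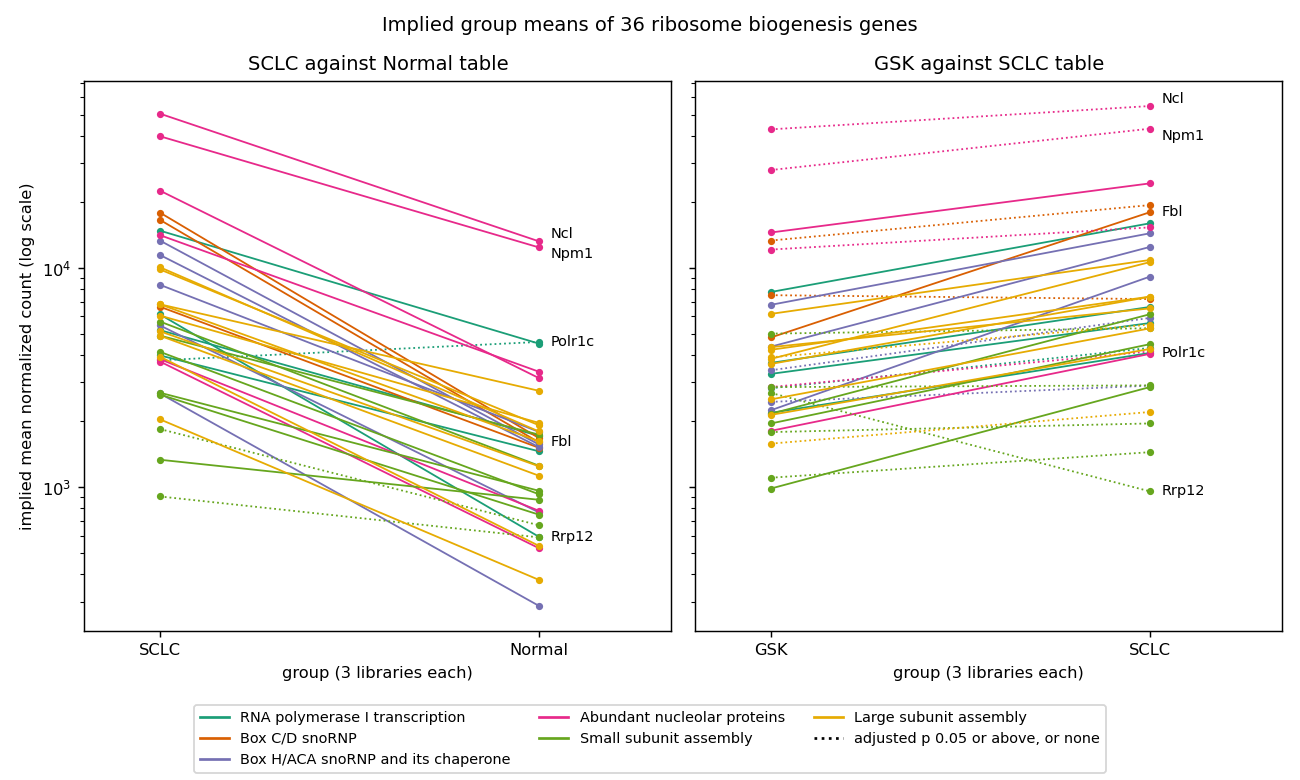
Implied mean normalised count of each member on a log scale, SCLC and Normal from the first table at left, and GSK and SCLC from the second at right. Each line is a gene, coloured by role and dotted where it was not called; at left all lines but that of Polr1c run higher in SCLC, and at right the dotted line of Rrp12 runs higher in GSK (2684 against 955).

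Rrp9 and Rrp12 had the widest errors of the 36 genes, and after this was seen the other genes with a like name were examined. In the deposited annotation, 9 genes averaging at least 100 have a full name that begins with ribosomal RNA, as in ribosomal RNA processing: Rrp9, Rrp12, Rrp1, Rrp1b, Rrp7a, Rrp8, Rrp15, Rrp36 and Rrnad1. Their standard errors ran from 0.545 to 1.33 for GSK against SCLC and from 0.555 to 1.34 for SCLC against Normal in the authors' deposited tables. The medians of the 9 were 0.819 and 0.857, where those of all genes averaging at least 100 were 0.329 and 0.305, in the authors' deposited tables. Such errors were not confined to the name. Of all genes averaging at least 100, 14% for GSK against SCLC and 12.5% for SCLC against Normal had errors at or above the lowest of the 9. Exosc5, a gene without that name, had errors of 0.78 and 0.80 and no p-value in the authors' deposited tables. The other 34 members ran from 0.22 to 0.428 for GSK against SCLC and from 0.199 to 0.403 for SCLC against Normal. A further 11 genes with rRNA elsewhere in the name had errors of 0.255 to 0.355 for GSK against SCLC and 0.226 to 0.333 for SCLC against Normal. Of the 9 genes, 5 had no p-value beside their fold change in both tables, as 59 of 13557 genes (0.435%) had for GSK against SCLC and 72 of 12959 (0.556%) for SCLC against Normal. Rrp1 was the extreme, with a mean of 6724 and an error of 1.33 for GSK against SCLC in the authors' deposited table. The cause of these errors was not tested, and the fold changes of Rrp9 and Rrp12 carry them.

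**Figure D3:**
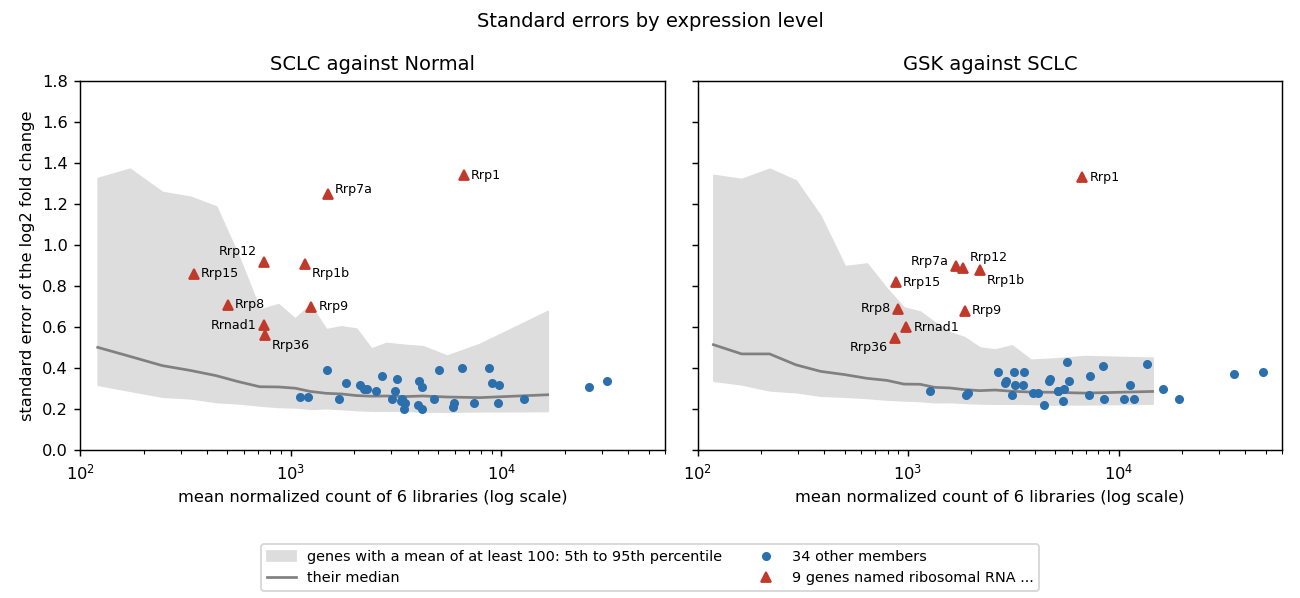
Standard error of the log2 fold change against the mean normalised count (log scale) in each comparison, for the 34 other members (blue) and the 9 genes named ribosomal RNA (red triangles), with the median and the 5th to 95th percentile of all genes averaging at least 100 in grey. The 9 genes have errors of at least 0.545, and no other member exceeds 0.428. Of all genes averaging at least 100, 14% (GSK against SCLC) and 12.5% (SCLC against Normal) reach the lowest error of the 9.

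Some of the 36 genes carry small nucleolar RNA genes in their introns or elsewhere inside their bounds. By the GENCODE M21 annotation there were 19 such RNA genes in 6 members (16.7%): Nop56 with 5, Nop58 with 4, Ncl, Gnl3 and Wdr43 with 3 each, and Dkc1 with 1. Of 21951 protein-coding genes, 279 (1.27%) carry any. This split was made after the values were seen. In GSK against SCLC organoids, 0 of the 6 host genes were lower (median log2 fold change −0.45, range −0.79 to 0.06) in the authors' deposited table. Of the other 29 tested members, 20 were lower (median −0.85, range −2.02 to −0.03) in the authors' deposited table, and 6 when groups were scaled to equal totals. Beside these counts, 15.5% of all genes and 37.1% of genes averaging at least 1000 were lower, and 6.94% of all genes when scaled. With only 6 hosts, a count of 0 lower cannot be set apart from these shares. In SCLC against Normal organoids, all 6 hosts and 27 of the 29 others were higher, with medians of 2.22 and 2.12 in the authors' deposited table. The transcripts of the hosts also had a lower GC content, a median of 44.0% against 51.6% for the others. With GC content and length trends removed, the split changed. Then 3 of the 6 hosts (Nop56, Dkc1 and Gnl3) and 21 of the 29 others were lower in GSK organoids, with medians of −0.90 and −0.91. The share of all genes lower in that setting was not set beside these counts, so they are not read as a result about the hosts. Dkc1 also passed when genes with a mean under 50 were left out.

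**Figure D4:**
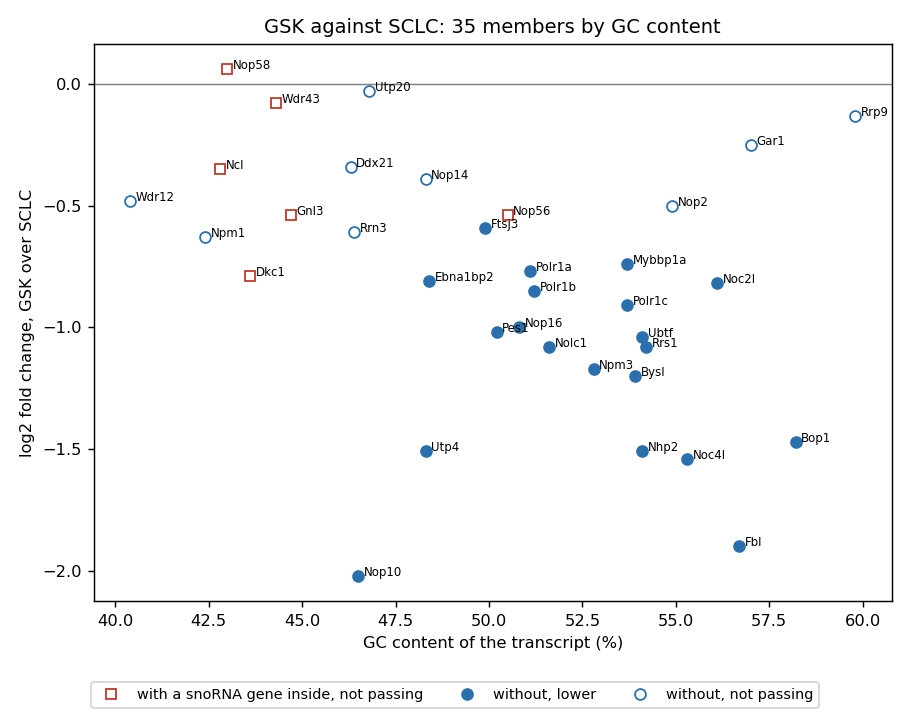
Log2 fold change of GSK over SCLC against the GC content of the transcript in percent, for the 35 members with an adjusted p, with squares for the 6 that carry small nucleolar RNA genes, filled symbols for genes called lower and open symbols for genes that did not pass. All 6 squares are open and lie between −0.79 and 0.06, where 15.5% of all genes and 37.1% of genes averaging at least 1000 were called lower. Scaling to equal totals raises each point by 0.51, and with GC and length trends removed 3 of the 6 (Nop56, Dkc1 and Gnl3) were called lower.

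Across the 35 members, the rank correlation of the GSK against SCLC fold change with GC content was −0.42 and with transcript length 0.31. Over 7593 genes averaging at least 1000 the same values were −0.38 and 0.39; the values of the members lay close to these. They are correlations across genes of the same libraries, and genes are not independent replicates. Over 27070 tested genes with a known GC content, the correlations were −0.21 with GC content and −0.01 with length. The trend removed was that of these tested genes, so it differs from that of the abundant genes and the members. With it removed, 24 members were lower in GSK organoids (median −0.91). The share of all genes lower in that setting was not set beside this count, so a general rise in lower calls cannot be told apart. The hosts Nop56, Dkc1 and Gnl3 and also Npm1 and Wdr12 were gained, and Mybbp1a was lost. The median over the tested genes was then 0.00, which the removal itself sets. In SCLC against Normal organoids the rank correlations across the members were 0.21 with GC content and −0.24 with length.

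A further 149 genes of the pathway, of which 148 were matched and 142 tested, were described in the same way. In SCLC against Normal organoids 103 were higher and 4 lower, and in GSK against SCLC organoids 52 were lower and 3 higher. Scaled to equal totals, 25 were lower and 9 higher in GSK organoids, where 6.94% of all genes were lower. The share of all genes higher under that scaling was not set beside the 9. Without scaling, the lower share of 36.6% in GSK organoids was close to the 37.1% of genes averaging at least 1000 (15.5% of all genes). The higher share of 72.5% in SCLC organoids stood beside 38.2% of such genes (25.3% of all genes). The snoRNP cofactors were higher in SCLC in 10 of 10 cases, led by Ruvbl2 (2.86 ± 0.24) and Ruvbl1 (2.76 ± 0.30), the paired ATPases of their assembly, in the authors' deposited table. In GSK organoids 6 of 10 were lower, among them Ruvbl2 (−1.86 ± 0.28), the cofactor Pih1d1 (−1.55 ± 0.27) and the RNA-binding core protein Snu13 (−1.38 ± 0.34) in the authors' deposited table. Of 11 further RNA polymerase I genes, 8 were higher in SCLC organoids, led by Tcof1 (3.08 ± 0.25), the gene of treacle, and the subunit gene Polr1e (2.86 ± 0.22) in the authors' deposited table. The termination factor Ttf1 was lower there (−0.90 ± 0.22) in the authors' deposited table. In GSK organoids 3 of these 11 were lower, led by the promoter factor Taf1c (−1.62 ± 0.34), and its partners Taf1d (0.89 ± 0.28) and Taf1a (0.71 ± 0.27) were higher, in the authors' deposited table. When groups were scaled to equal totals, 3 of the 6 cofactor calls (Ruvbl2, Pih1d1 and Snu13) and 2 of the 3 lower RNA polymerase I calls (Taf1c and the subunit gene Polr1g, Cd3eap in the files) held, as did Taf1a and Taf1d.

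Further small subunit genes were higher in SCLC organoids in 30 of 42 cases and lower in 0, and in GSK organoids 11 of 42 (26.2%) were lower, a smaller share than among genes averaging at least 1000 (37.1%). The leading genes were Rcl1 (2.84 ± 0.33) and Wdr46 (2.46 ± 0.22) in SCLC against Normal, and Nop9 (−1.83 ± 0.30) and Ddx49 (−1.79 ± 0.26), an RNA helicase gene, in GSK against SCLC, in the authors' deposited tables. Further large subunit genes were higher in SCLC organoids in 30 of 41 cases, led by Ppan (2.86 ± 0.28), and Sbds, a late factor in release of the subunit, was lower (−1.66 ± 0.31) in the authors' deposited table. In GSK organoids 17 of 41 (41.5%) were lower, near the 37.1% of genes averaging at least 1000. They were led by Nip7 (−1.93 ± 0.31), while the helicase gene Ddx55 was higher (0.72 ± 0.26) in the authors' deposited table. Subunits of RNase MRP and RNase P, which cut ribosomal and transfer RNA precursors, were higher in SCLC organoids in 8 of 10 cases, led by Rpp25 (4.66 ± 0.55), in the authors' deposited table. In GSK organoids 6 of 10 (60%) were lower, led by Pop4 (−1.66 ± 0.26), in the authors' deposited table, beside 15.5% of all genes. The RNA exosome, which trims precursor ends, had 8 of 12 genes higher in SCLC organoids, led by Exosc2 (3.30 ± 0.23), with Exosc7 lower (−0.98 ± 0.29), in the authors' deposited table. In GSK organoids 6 of its 12 genes (50%) were lower, led by Exosc4 (−1.48 ± 0.27), in the authors' deposited table. Beside them, 37.1% of genes averaging at least 1000 and 15.5% of all genes were lower. Scaled to equal totals, 6 of 42 small subunit, 8 of 41 large subunit, 3 of 10 RNase and 3 of 12 exosome genes were lower in GSK organoids. Beside them, 6.94% of all genes were lower. Nop9, Ddx49, Nip7, Pop4 and Exosc4 were among the genes that remained lower.

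**Figure D5:**
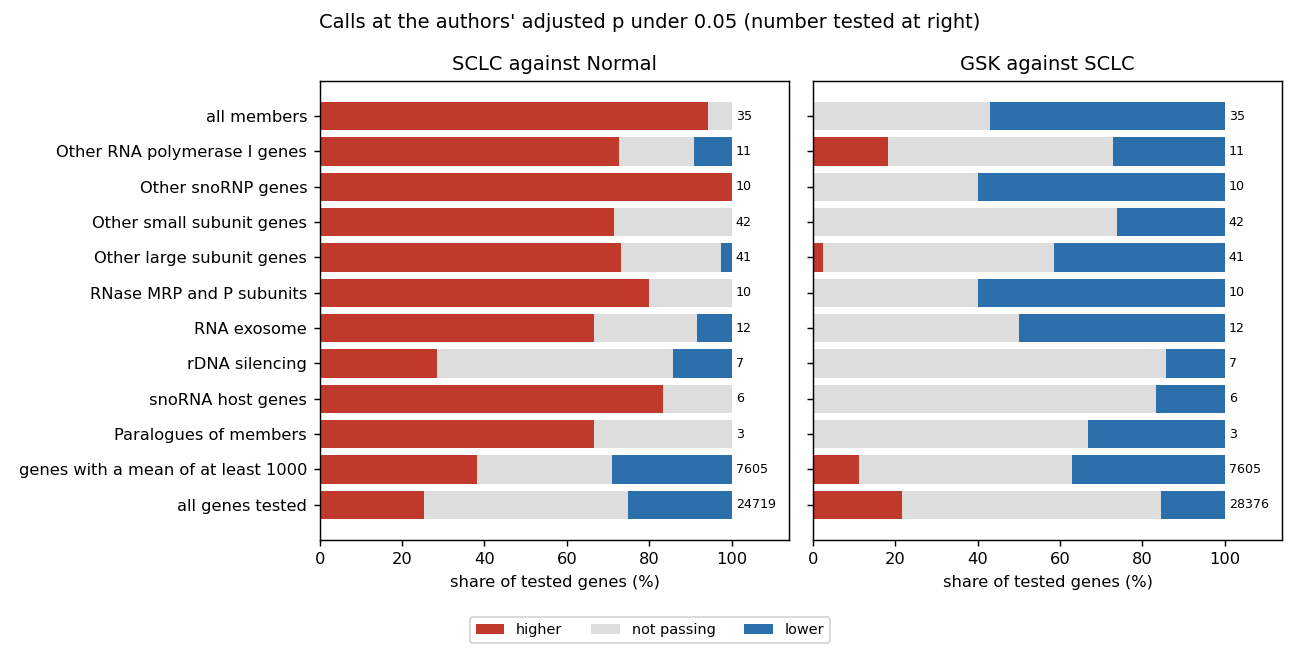
Share of tested genes (percent) called higher (red), lower (blue) or not passing (grey) in each comparison, for all 36 members, the further pathway lists, genes averaging at least 1000 and all genes, with the number tested at right. The members have 94.3% higher at left and 57.1% lower at right, against 37.1% of abundant genes lower at right; scaled to equal totals, 6 of the 35 members remained lower.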

How the data were processed

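Per the submitters' processing notes, STAR 2.7.9a aligned the reads to GRCm39; how reads were counted, with which strand setting and annotation, and the tool of the comparisons are not given in the sources used. The deposited signal column holds the authors' mean normalised count over 6 libraries. The log2 columns hold a log2 fold change and the standard error that the authors gave it, the score column the authors' statistic, which equalled their ratio to within 8.9e-08, and the p-value columns the authors' p-value and adjusted p-value, per the file headers. No library values were at hand. The control of the GSK table was taken as SCLC: over 13634 genes its implied mean differed from that of SCLC in the other table by a median log2 ratio of 0.109 (SD 0.0084, against 2.02 for the other group). Implied group means, 95% intervals (1.96 standard errors), counts per list and alternatives were computed with Python 3.11.15, numpy 2.4.6, pandas 2.3.3 and scipy 1.17.1, after tests on simulated data. Benjamini-Hochberg adjustment over all genes was used wherever p-values were recomputed. Alternatives were scaling to equal totals, centring, a mean of at least 50, no filter, a threshold of 0.01, a fold threshold, and removal of GC and length trends. Those trends were medians in 20 bins over all tested genes with a known GC content. Named in full were the 2 most changed called members of each role and all members not called, and of pathway lists up to 3 called genes per direction. Transcript length, GC content and overlaps came from GENCODE M21 (GRCm38), matched by identifier. Length and GC content were those of the longest transcript marked as principal, or else of the longest protein-coding transcript, or else of the longest. Exons of 15 members overlap a gene on the opposite strand; the kit is stranded per the labels. Members and lists were chosen with earlier results of these data known.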

Additional observations from a re-analysis of the deposited data

How the results depend on the processing

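No paired analysis was possible because the files hold comparisons and no library values; for the same reason leaving out each replicate was not run, depth per library is unknown, and precision rests on the authors' standard errors. In SCLC against Normal, 32 of the 33 calls of members held under each alternative but the fold threshold (Nop14 did not), and 1 member, Polr1c, was lower after centring and 1 after removing GC and length trends. With the fold threshold, 2949 of all genes were higher and 3391 lower, and 48 pathway genes were higher and 0 lower. In GSK against SCLC, scaling to equal totals left 6 members lower (Fbl, Nhp2, Nop10, Utp4, Noc4l and Bop1), 1970 of all genes lower, and 25 pathway genes lower and 9 higher. The fold threshold left 1 member lower, 563 of all genes lower and 3161 higher, and 4 pathway genes lower and 0 higher. A mean of at least 50 left 3422 of all genes higher. An adjusted p under 0.01 left 1 pathway gene higher, and removing GC and length trends left 0. The other alternatives gave 14 to 24 lower members. The cause was not tested.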

Other observations

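Ribosomal RNA itself is present in the tables, although the libraries were made with an mRNA kit. Rn18s, the small subunit ribosomal RNA, had an implied mean of 29103 in GSK and 1019662 in SCLC organoids, a log2 fold change of −5.13 ± 0.87, in the authors' deposited table. It had 965431 in SCLC and 34038 in Normal organoids, or 4.83 ± 1.20, in the authors' deposited table. It took 0.0912% of the implied total in GSK, 2.3% in SCLC and 0.0761% in Normal organoids. Neither value has a p-value, nor do those of the mitochondrial ribosomal RNAs mt-Rnr1 and mt-Rnr2, so none of the 3 was called. How much ribosomal RNA an mRNA library retains depends on its enrichment, and that was not measured.

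A list made for silencing of ribosomal RNA genes held 7 genes, and the direction in which each acts was not examined. Of these, 2 were higher (28.6%) and 1 lower (14.3%) in SCLC than in Normal organoids, near or below the shares of all genes (25.3% higher and 25.1% lower). Suv39h1, a histone methyltransferase, was higher (2.73 ± 0.27), as was the remodeller Smarca5 (0.75 ± 0.30), and the deacetylase Sirt7 was lower (−0.86 ± 0.25), in the authors' deposited table. In GSK against SCLC organoids Suv39h1 alone of the 7 was called (−1.01 ± 0.26) in the authors' deposited table, a lower share of 14.3% beside 15.5% of all genes. Among long RNAs that carry small nucleolar RNAs, 5 of 6 (83.3%) were higher in SCLC organoids, led by Snhg17 (2.61 ± 0.40), in the authors' deposited table. Snhg6 alone was lower in GSK organoids (−0.85 ± 0.35) in the authors' deposited table, a share of 16.7%, near the 15.5% of all genes. Fbll1, a fibrillarin-like paralogue, had 595 in SCLC and 0.411 in Normal organoids, and 397 in GSK and 638 in SCLC organoids (−0.69 ± 0.35, adjusted p = 0.118), by the authors' deposited tables. Gnl3l, the paralogue of nucleostemin, was higher in SCLC than in Normal organoids (1.40 ± 0.24) and lower in GSK than in SCLC organoids (−0.97 ± 0.26) in the authors' deposited tables. The GSK calls of Suv39h1, Snhg6 and Gnl3l did not hold when groups were scaled to equal totals. Under that scaling Kdm2a and Sirt1 of the silencing list, the host gene Gas5 and the paralogue Npm2 were called higher in GSK organoids. Npm2 had low levels, 19.3 in GSK and 8.07 in SCLC organoids. The scaling raises each log2 fold change by 0.51, and the median over all genes tested became 0.75. The share of all genes higher under it was not set beside these calls, so they are not read as a result about these 3 lists.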
